A study of Mus musculus with 41 samples.

Results

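Sorted cells of the mouse fetal lung at E18.5, late in gestation, were compared in 4 RNA libraries of the 41 samples of the series. They were defined by their labels and not by measured values, as the 2 saline pools of sorted Twist2Cre mesenchyme and the 2 libraries of cells sorted for CD106, none of them labelled with dexamethasone. The pools came from Twist2Cre;Rosa26mT/mG fetuses, in which cells that have made Cre from the Twist2 gene swap a red membrane protein for a green one. Dams received saline by intraperitoneal injection at E18.5, lungs were taken 2 hours later and pooled by genotype, and green cells without red signal were sorted by flow cytometry. The Cre mark is permanent, so it reports that a cell or its ancestors made Twist2 and not that it does so now. The CD106+ libraries are labelled as sorted lung of the same stage, with no mouse line and no injection given. For chromatin samples of the same series, made from C57Bl/6J lungs, CD106+ cells were captured with magnetic beads after removal of cells with CD45, CD31 or CD309, and whether the RNA libraries were made that way is not given in the sources used here. The sets therefore differ in isolation, and may differ in mouse line and injection. Each set also comes from its own count table, and whether the libraries were prepared and sequenced together is not known here. These differences and the identity of the sorted cells cannot be told apart. The comparison therefore describes what each sort held.

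The mesenchyme of the fetal lung surrounds the branching epithelium and gives rise to matrix fibroblasts, myofibroblasts that lay down elastin, airway and vascular smooth muscle, and pericytes, the contractile cells that wrap capillaries. CD106 is the adhesion protein VCAM1, encoded by Vcam1, which binds integrins on leukocytes and is also made by mesenchymal cells. Twist2 encodes a transcription factor of embryonic mesenchyme, and Cre lines built on it mark fibroblasts, smooth muscle and cartilage.

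Levels are given as CPM, counts scaled to a library of 1000000 with a correction for library composition, and are compared between libraries for a gene but not between genes, since they are not per length. Where 2 pairs of values are set against each other, the first pair is pools 1 and 2 and the second is CD106+ libraries 1 and 2. Total counts were 1670896 and 2431420 in Twist2Cre pools 1 and 2 and 4987175 and 7133941 in CD106+ libraries 1 and 2. Genes on X and Y were left out because the sets differed in their mix of male and female cells: Ddx3y, a Y-linked gene, stood at 1.2 and 0 CPM of all counts in the pools and at 80.2 and 47.5 CPM in the CD106+ libraries. Xist, made from an inactive X, stood at 33133 and 20879.6 CPM against 6761 and 5221 CPM. The part of sex in autosomal differences was not tested. Libraries of a set were also uneven. Pool 1 held more erythroid, leukocyte and epithelial transcripts than pool 2, and CD106+ library 1 carried cardiac transcripts, with values given at each result. The gene that each sort is named for was also looked at. Vcam1 (chromosome 3, 116110020 to 116129688) stood at 385 and 932 CPM in the pools and 590.4 and 661 CPM in the CD106+ libraries, overlapping levels with a log2 difference of 0.08 (SE 0.38, edgeR adjusted p = 0.94). On the scaling of all 11 bulk libraries, Vcam1 stood at 576 and 642 CPM in CD106+. In the 2 CD106- libraries of the series it stood at 1.36 and 3.15 CPM on that scaling. Twist2 had 0 and 0 reads in the pools and 8 and 8 in the CD106+ libraries and was too low to test, so its own RNA says nothing about the Twist2Cre sort. The labels do not say that replicates came from separate litters, and p-values then measure the spread between these libraries, which may be technical. In bulk RNA, fewer cells of a type and less RNA per cell cannot be told apart.

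Of 11614 autosomal genes tested by edgeR's quasi-likelihood test, 1763 differed at a Benjamini-Hochberg adjusted p under 0.05, which is 15.2%. The split was 916 genes higher in the Twist2Cre pools (7.89%) and 847 higher in the CD106+ libraries (7.29%), and with total counts as the scale it was 729 and 1010. The median difference of all genes was -0.04 on the log2 scale (Twist2Cre minus CD106+), and -0.22 with total counts. The counts and medians of gene lists are to be read against these shares and this median. The number of genes that differed fell to 675 without CD106+ library 1 and 819 without CD106+ library 2, and 432 of the 1763 kept their call whichever library was left out, 266 of them higher in Twist2Cre. A fit that leaves out a library holds 1 library in that set, assumed to vary like the other set. The scatter of mean levels shows 75 genes with no read in either pool, 71 of them called, and 62 with no read in either CD106+ library, all called. Such genes passed the low count filter only through the set that had reads. That most of them were called was largely fixed by this filter. The pools were also shallower, with 3 counts over the set standing at 0.88 CPM against 0.249 CPM in CD106+.

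**Figure D1:**
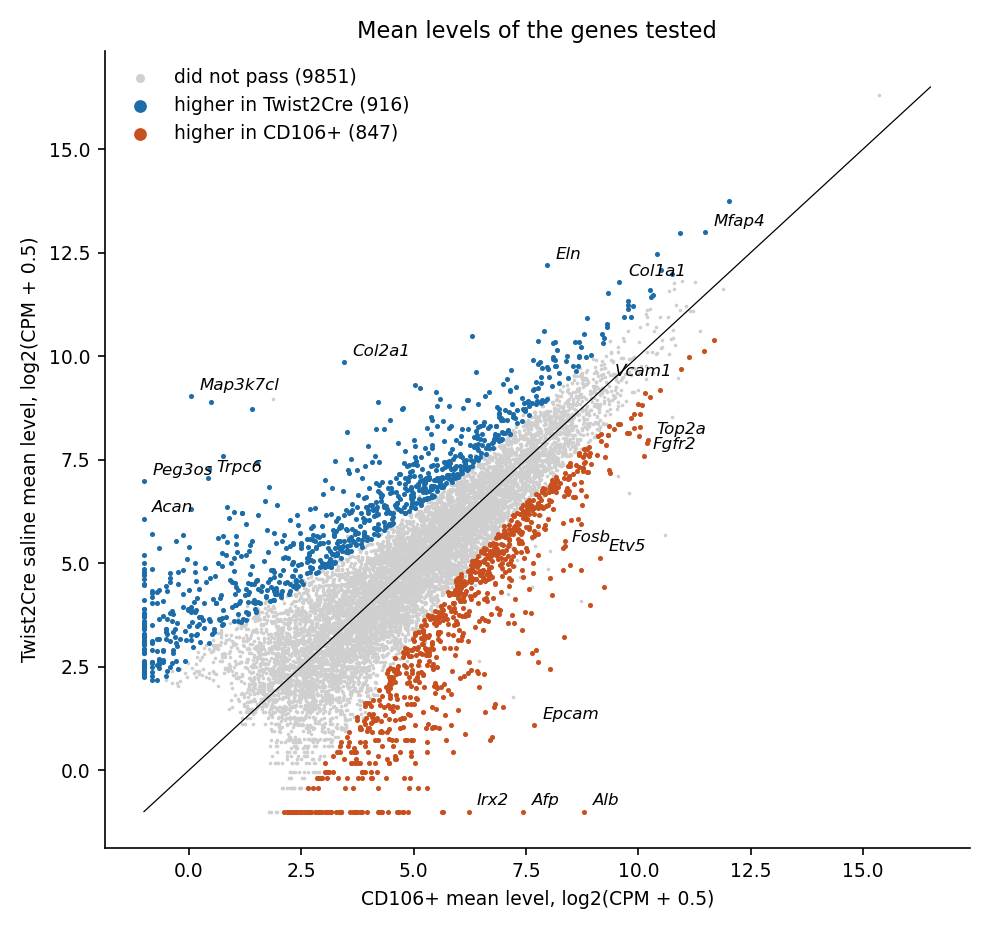
Mean level of each gene tested in the 2 CD106+ libraries (x axis) and the 2 Twist2Cre saline pools (y axis), both as log2 of CPM plus 0.5, coloured by the edgeR call; the line marks equal levels. The 916 genes higher in Twist2Cre lie above the line and the 847 higher in CD106+ below it, and the column and row of points at the lower limits are genes with no read in 1 set.

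The 12 genes with the largest fitted differences toward CD106+ had no read in either pool. Only lower bounds can be given for them, against a floor of 3 counts over the pools, and their rank against genes with reads in both sets is not known. Alb and Afp, which encode the plasma proteins albumin and alpha-fetoprotein, stood at 289 and 597 and at 117 and 229 CPM in the CD106+ libraries, at least 504-fold and 197-fold higher. Irx2, a homeobox factor, stood at 98.9 and 49.3 CPM (at least 84.2-fold), Clic6, a chloride channel protein, at 54.6 and 45.7 CPM and Itgb6, an epithelial integrin subunit, at 64.3 and 33.4 CPM. The other 7 stood between 17.8 and 35.5 CPM, at least 27.6 to 32.8-fold higher. They include the tight junction genes Ocln and Marveld3, the epithelial protease Prss8 and the cadherin Cdh16. Together with Itgb6 these are genes of epithelial cells. All 12 kept their call in each of the 14 alternative fits.

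Toward Twist2Cre the 12 genes with the largest fitted differences were more mixed, and the same limit holds for all but 1 of them. Map3k7cl (chromosome 16, 87553330 to 87595336), a gene of unclear function, stood at 547 and 501 CPM in the pools and at 0 and 1.08 CPM in the CD106+ libraries (log2 difference 9.61, SE 0.62, edgeR adjusted p = 5.7e-09). The other 11 had no read in either CD106+ library. Acan, the cartilage proteoglycan aggrecan, stood at 93.2 and 40.9 CPM (at least 269.7-fold), Igfn1, a muscle protein gene, at 45.1 and 18.1 CPM, Kcna5, a potassium channel of smooth muscle, at 38.9 and 13.3 CPM and Mylk4, a myosin kinase relative, at 27.5 and 20.9 CPM. Peg3os stood at 167 and 84.3 CPM but lies antisense inside Peg3, and without strand in the counts the reads of the pair cannot be told apart. Gm32014 overlaps Trpc6 and is uncertain for the same reason. Oas3, an interferon-induced enzyme, Gm32014, Acsm2 and St8sia1 were carried mostly by pool 1, at 39.7, 45.1, 46.6 and 52.7 CPM against 3.81, 6.67, 7.62 and 4.28 CPM in pool 2, and all but Acsm2 were too low to test without pool 1. In a fit over 6 Twist2Cre pools and 3 CD106+ libraries with dexamethasone as a covariate, Map3k7cl, Acan, Igfn1 and Peg3os no longer passed (edgeR adjusted p = 0.18, 0.37, 0.13 and 0.18). That fit adds 1 dexamethasone CD106+ library and assumes the same dexamethasone effect in both sorts. The added library had an endothelial marker sum of 2784 CPM, against 157 and 132 CPM in CD106+ libraries 1 and 2. Its smooth muscle sum, 1510 CPM, lay between their 1329 and 1679 CPM. The part of this library in calls lost in that fit was not tested.

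Genes of pericytes and smooth muscle were higher in Twist2Cre nearly throughout. All 11 pericyte markers tested were higher in the pools and 0 in CD106+, with a median difference of 2.98 on the log2 scale, and 10 of 12 smooth muscle markers were higher and 0 lower, with a median of 2.31. Summed over the list, pericyte markers reached 3577 and 2426 CPM in the pools and 381 and 442 CPM in the CD106+ libraries, and the 2 CD106- libraries of the series gave 175 and 217 CPM, so both CD106 fractions were low. Summed smooth muscle markers reached 4618 and 4599 CPM against 1329 and 1679 CPM in CD106+, with 341 and 695 CPM for CD106-. The plot of summed marker levels shows the pools above both CD106 fractions for each of these lists.

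**Figure D2:**
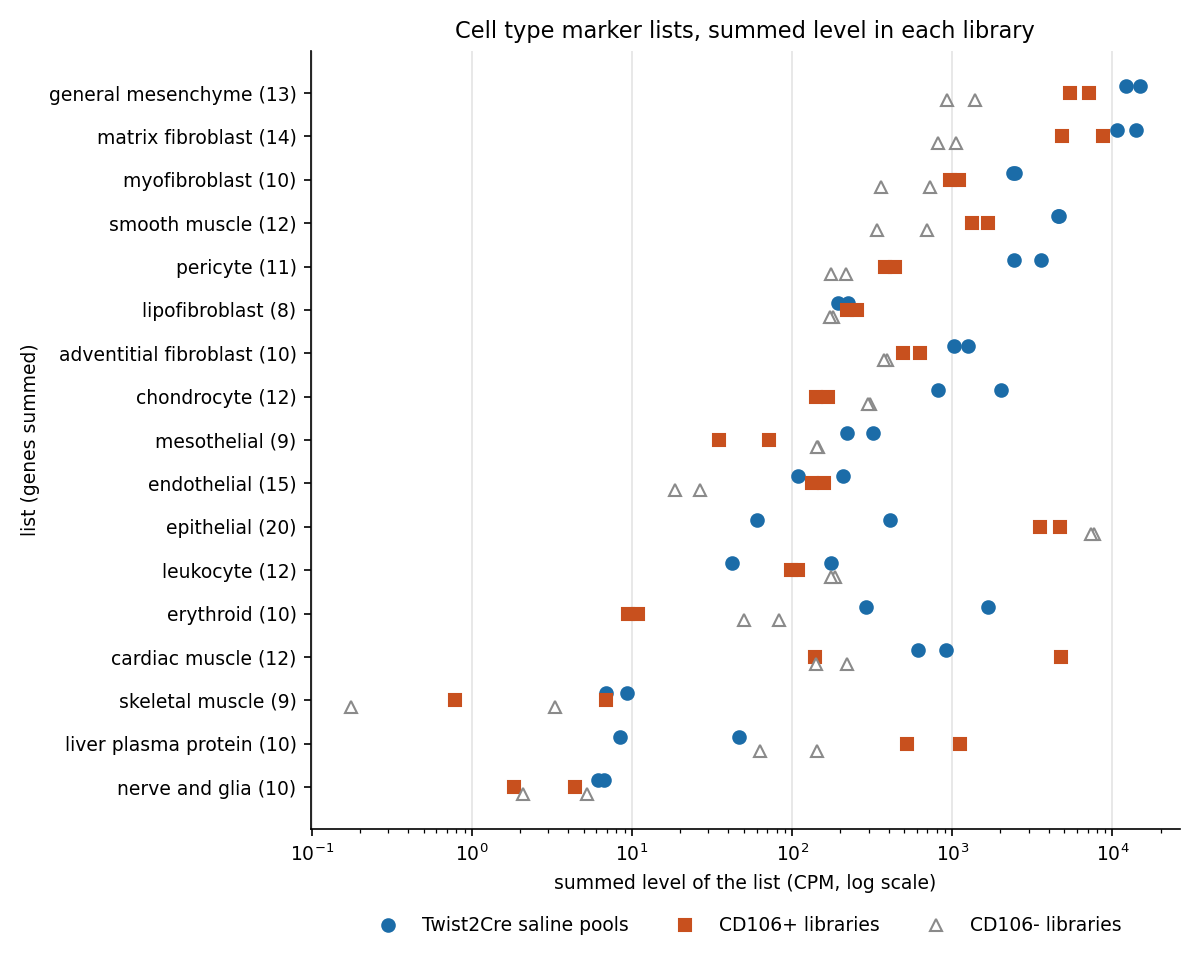
Summed level of each cell type marker list (y axis, number of genes in brackets) in CPM on a log scale (x axis), with 1 point per library for Twist2Cre saline pools, CD106+ libraries and CD106- libraries. Pericyte sums of 3577 and 2426 CPM in the pools lie above 381 and 442 CPM in CD106+, epithelial sums of 408 and 60.2 CPM lie below 3513 and 4680.5 CPM, and 1 CD106+ library stands apart for cardiac muscle at 4749.6 CPM.

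Among pericyte markers, Trpc6 (chromosome 9, 8543867 to 8680752), a cation channel of vascular cells, stood at 191 and 74.7 CPM in the pools and 1.29 and 0.404 CPM in the CD106+ libraries. Its groups did not overlap, with a log2 difference of 7.35 (SE 0.66, edgeR adjusted p = 2.4e-07). Abcc9, a potassium channel regulator of mural cells, stood at 583 and 361 against 25.4 and 10.5 CPM, and Gucy1a3, a subunit of the nitric oxide receptor guanylate cyclase, at 1887 and 1253 against 227 and 253 CPM. Pdgfrb, the receptor through which endothelial PDGF-B recruits pericytes, stood at 298 and 206 against 21.1 and 42.3 CPM (log2 difference 2.98, SE 0.40, edgeR adjusted p = 2.4e-05). These 4 were each higher in pool 1 than in pool 2, and both pools lay above both CD106+ libraries. They were chosen by smallest p, so the separation of the sets was largely set by the choice. By contrast Pdgfra, the receptor of matrix fibroblasts and myofibroblast precursors, stood at 761 and 719.8 against 564 and 585 CPM and did not pass (log2 difference 0.37, 95% interval -0.31 to 1.05, edgeR adjusted p = 0.52). Of the 11 pericyte calls, 9 held whichever library was left out.

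Of the contractile genes of smooth muscle, Myh11, its myosin heavy chain, stood at 912 and 722 CPM against 139 and 146 CPM (log2 difference 2.52, SE 0.35, edgeR adjusted p = 2.6e-05). Tagln, the actin-binding protein transgelin, stood at 103 and 123 against 5.37 and 11.7 CPM, Lmod1, leiomodin, at 51.9 and 40.5 against 1.72 and 2.56 CPM and Actg2, enteric smooth muscle actin, at 76.4 and 124 against 9.03 and 17.1 CPM. Acta2, smooth muscle actin, stood at 948 and 1314 against 141 and 439 CPM (log2 difference 1.96, edgeR adjusted p = 0.0072, and 0.057 with total counts as the scale). Each of these 5 was higher in both pools than in both CD106+ libraries. Acta2 was a fixed check and the others were chosen by smallest p, so their separation was largely set by the choice. The 2 members that did not pass were Smtn, at 41.2 and 43.8 against 10.3 and 38.4 CPM, and Pln, which is shared with heart muscle, at 51.9 and 13.3 against 54.4 and 3.64 CPM, high in CD106+ library 1. Of the 10 calls, 7 held whichever library was left out.

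Promoters of these lists were searched for the CArG box, the 10-base site of serum response factor, because that factor drives both contractile genes and growth-factor-induced early genes. The RefSeq promoter table (GRCm38.p6) covered 9 smooth muscle, 6 pericyte and 20 immediate early genes, and the 250 bases before each start held a match, on either strand, in 1, 1 and 2 of them. Promoters of list members not covered, Tagln and Myh11 among them, were not searched. The share over all 27025 genes of that reference was 1.62%. The matches at differing genes were in Trpc6 and Myl9, a myosin light chain of smooth muscle that stood at 118 and 123 against 19.6 and 35.7 CPM, both higher in Twist2Cre, and in Egr2, an early zinc finger factor that stood at 4.58 and 2.86 against 20.0 and 23.9 CPM, higher in CD106+. The stretches are printed 5′ to 3′ on the plus strand with the box in capitals, at chr9:8544010-8544039, chr2:156775214-156775407 and chr10:67537484-67537513, to show the box at genes that differed in opposite directions.
Trpc6: cctttcgatcCCTTTAAAGGtggggatcgt
Myl9: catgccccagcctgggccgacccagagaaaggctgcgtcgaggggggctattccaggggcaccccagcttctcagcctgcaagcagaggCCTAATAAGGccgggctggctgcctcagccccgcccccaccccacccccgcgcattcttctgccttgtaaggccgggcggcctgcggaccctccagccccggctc
Egr2: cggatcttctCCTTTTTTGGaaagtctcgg
The boxes began at -122, -161 and -72 from the transcript start of the promoter reference, and the Trpc6 and Egr2 boxes lie inside the genes as the gene table annotates them. Other motifs searched were the cAMP response element TGACGTCA, found in 3 of 20 immediate early genes (Btg2, Dusp1 and Maff) and in 1.77% of all genes, and the heat shock element, the repeated site of heat shock factor, found in 2 of 10 heat shock genes (Hspd1 and Hspe1) and in 0.514% of all. The AP-1 site TGANTCA and the TATA box TATAAA were held by 7.82% and 14.3% of all genes. The AP-1 site stood in 1 smooth muscle gene (Mylk), 1 heat shock gene (Bag3) and 0 of the other 2 lists, and the TATA box in 2 smooth muscle genes (Synpo2 and Pln), 2 immediate early genes (Fos and Nr4a2) and 0 of the other 2 lists. Both strands were searched, and a CArG box can itself hold the letters of the TATA box. A match describes letters and does not show that a factor binds there.

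**Figure D3:**
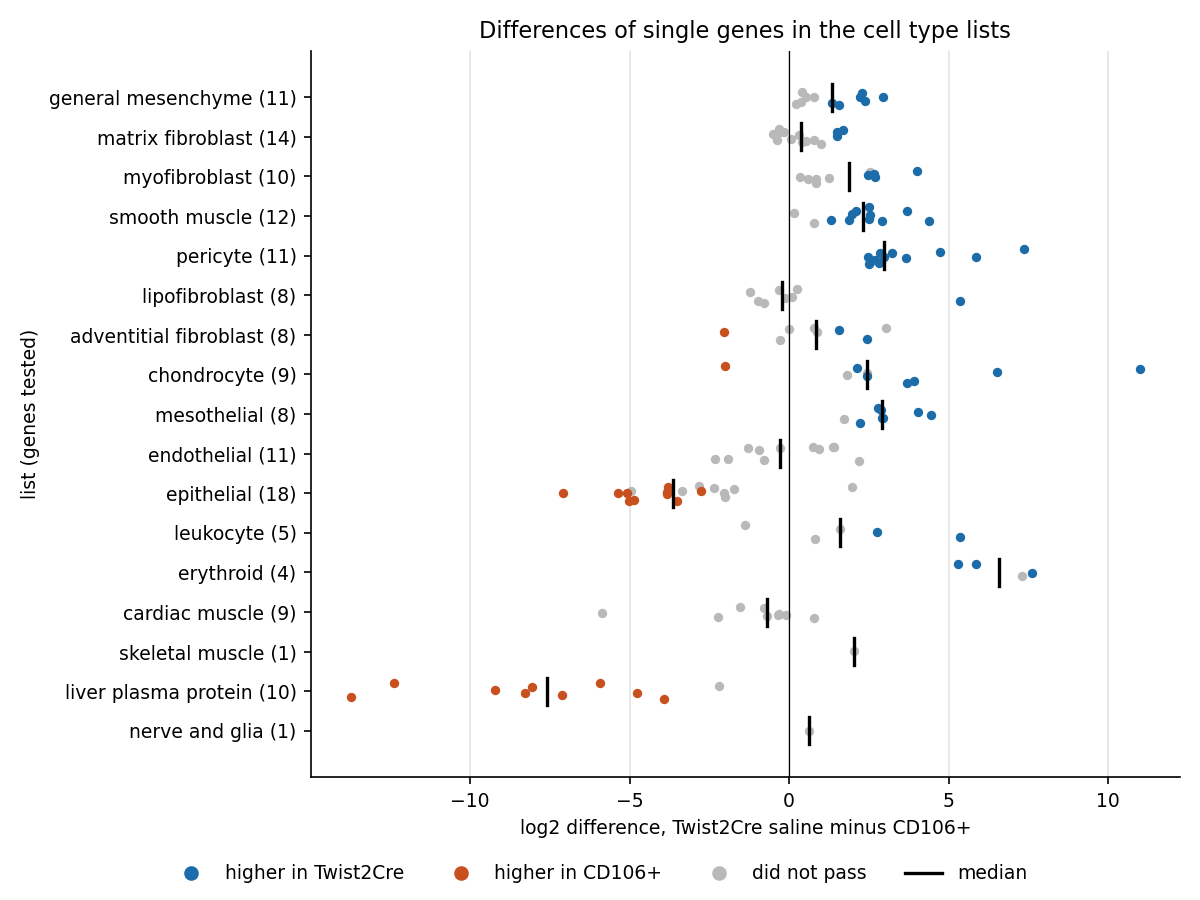
Log2 difference, Twist2Cre saline minus CD106+ (x axis), of each gene tested in the cell type lists (y axis, genes tested in brackets), coloured by call, with a bar at the list median. The 11 pericyte genes lie to the right, with a median of 2.98, and 10 of 18 epithelial genes are called to the left, with a median of -3.65.

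Calls in the matrix fibroblast and myofibroblast lists were all toward Twist2Cre, but most members did not pass. Differences of 5 of the 14 matrix fibroblast markers lay below 0. Of 14 matrix fibroblast markers 3 were higher in Twist2Cre, 0 in CD106+ and 11 did not pass, with a median of 0.37. Itga8, an integrin subunit, stood at 715 and 738 against 228 and 287 CPM (log2 difference 1.50, edgeR adjusted p = 0.0034), and Gpc6, a heparan sulfate proteoglycan, at 965 and 684 against 270.2 and 236 CPM. Mfap4, a microfibril protein, stood at 7137 and 9191 against 1568 and 4193 CPM, with CD106+ library 1 the lowest, and its call was lost without pool 2 or CD106+ library 1 (edgeR adjusted p = 0.14 and 0.19) and with total counts as the scale (0.065). The abundant members Adh1 and Npnt, an alcohol dehydrogenase and the integrin ligand nephronectin, overlapped between the sets, at 515 and 1063 against 533 and 1248 CPM and 410.1 and 745 against 594 and 834 CPM. Of 10 myofibroblast markers 4 were higher in Twist2Cre and 0 in CD106+ (median 1.87). Aspn, the small proteoglycan asporin, stood at 339 and 363 against 24.3 and 19.1 CPM (log2 difference 4.02, SE 0.38, edgeR adjusted p = 1.5e-07), Enpp2, autotaxin, at 579.6 and 275 against 64.9 and 70.9 CPM and P2ry14, a nucleotide-sugar receptor, at 86.3 and 119 against 18.3 and 18.6 CPM. The fourth, the hormone gene Stc1, lost its call without CD106+ library 2 (edgeR adjusted p = 0.059). Hhip and Tgfbi, also of this list, did not pass, at 989.6 and 934 against 518 and 550.0 CPM and 279 and 529 against 160.3 and 285 CPM.

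General mesenchyme markers were higher in Twist2Cre in 6 of 11 cases and in CD106+ in 0 (median 1.35), and their sum was 12211 and 14925 CPM in the saline pools against 5451 and 7141 CPM for CD106+, with CD106- at 931 and 1389 CPM. Lum, the proteoglycan lumican, stood at 218 and 198 against 32.2 and 22.4 CPM, Dpt, dermatopontin, at 222 and 274 against 44.1 and 57.3 CPM and Prrx1, a homeobox factor of mesenchyme, at 173 and 164 against 24.7 and 40.0 CPM. Each kept its call in all 14 alternative fits. Adventitial fibroblast markers went both ways, 2 higher in Twist2Cre and 1 in CD106+ of 8. Dcn, decorin, stood at 454 and 593 against 80.2 and 110.3 CPM (log2 difference 2.46, edgeR adjusted p = 4.6e-05). The peptidase gene Dpp4 stood at 19.9 and 28.1 against 118 and 83.5 CPM, higher in CD106+, and Gsn, the actin-severing gelsolin, at 128 and 96.2 against 26.4 and 49.2 CPM, and both calls were lost without CD106+ library 1 (edgeR adjusted p = 0.078 and 0.18). Cd34, a stem cell surface marker, did not pass, at 13 and 37.6 against 21.7 and 29.3 CPM. Lipofibroblast markers passed in 1 of 8 cases: Fabp4, a fatty acid carrier that capillary cells also make, at 34.4 and 5.71 against 0.86 and 0.135 CPM, a call lost without pool 1 or CD106+ library 2 (edgeR adjusted p = 0.14 and 0.071). The lipid droplet gene Plin2 overlapped, at 56.5 and 83.8 against 29.7 and 87.4 CPM. The lipofibroblast median was -0.22, with 5 of 8 members below 0.

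Calls among matrix genes were also mostly toward Twist2Cre. The collagen and elastic fibre lists share members with the lists above, among them Col1a1, Lum, Dcn and Mfap4, so they are not independent of them. Of 17 collagen genes 10 were higher in Twist2Cre, 1 in CD106+ and 6 did not pass (median 1.40). Col1a1, the main fibrillar collagen, stood at 3510.2 and 3570.1 against 615 and 916 CPM (log2 difference 2.21, SE 0.37, edgeR adjusted p = 2.0e-04), Col4a2, of basement membranes, at 1516 and 1029 against 277 and 271 CPM, Col6a2, of beaded filaments, at 1965 and 1916 against 315 and 612 CPM and Col8a1, a short-chain vessel collagen, at 97 and 118 against 15.9 and 4.58 CPM. Col3a1, the fibrillar collagen of soft tissue, did not pass, at 2786 and 4331 against 2148 and 2771 CPM. The gene in the other direction was Col18a1, a basement membrane collagen, at 22.9 and 21.4 against 80.8 and 144 CPM. Of 22 elastic fibre and other matrix genes 11 were higher in Twist2Cre and 1, the fibrillin Fbn2, in CD106+ (median 1.28). Eln, elastin (chromosome 5, 134702595 to 134747368), stood at 5641 and 3735 CPM in the pools and 184 and 317 CPM in the CD106+ libraries, a log2 difference of 4.22 (SE 0.42, edgeR adjusted p = 4.0e-07). Its partner genes Fbln5 and Fbln2, which help assemble elastic fibres, stood at 409 and 483 against 47.7 and 42.5 CPM and 64.1 and 138 against 5.59 and 9.17 CPM. Sparc, a collagen-binding protein, and Vcan, the proteoglycan versican, did not pass, at 2929.9 and 4070.5 against 1416 and 2135 CPM and 1299.6 and 3036 against 2441 and 2285 CPM. With a library left out, 7 of the 11 collagen calls and 8 of the 12 elastic fibre calls held each time, and Fbln2 and Col8a1 no longer passed in the covariate fit (edgeR adjusted p = 0.27 and 0.14).

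**Figure D4:**
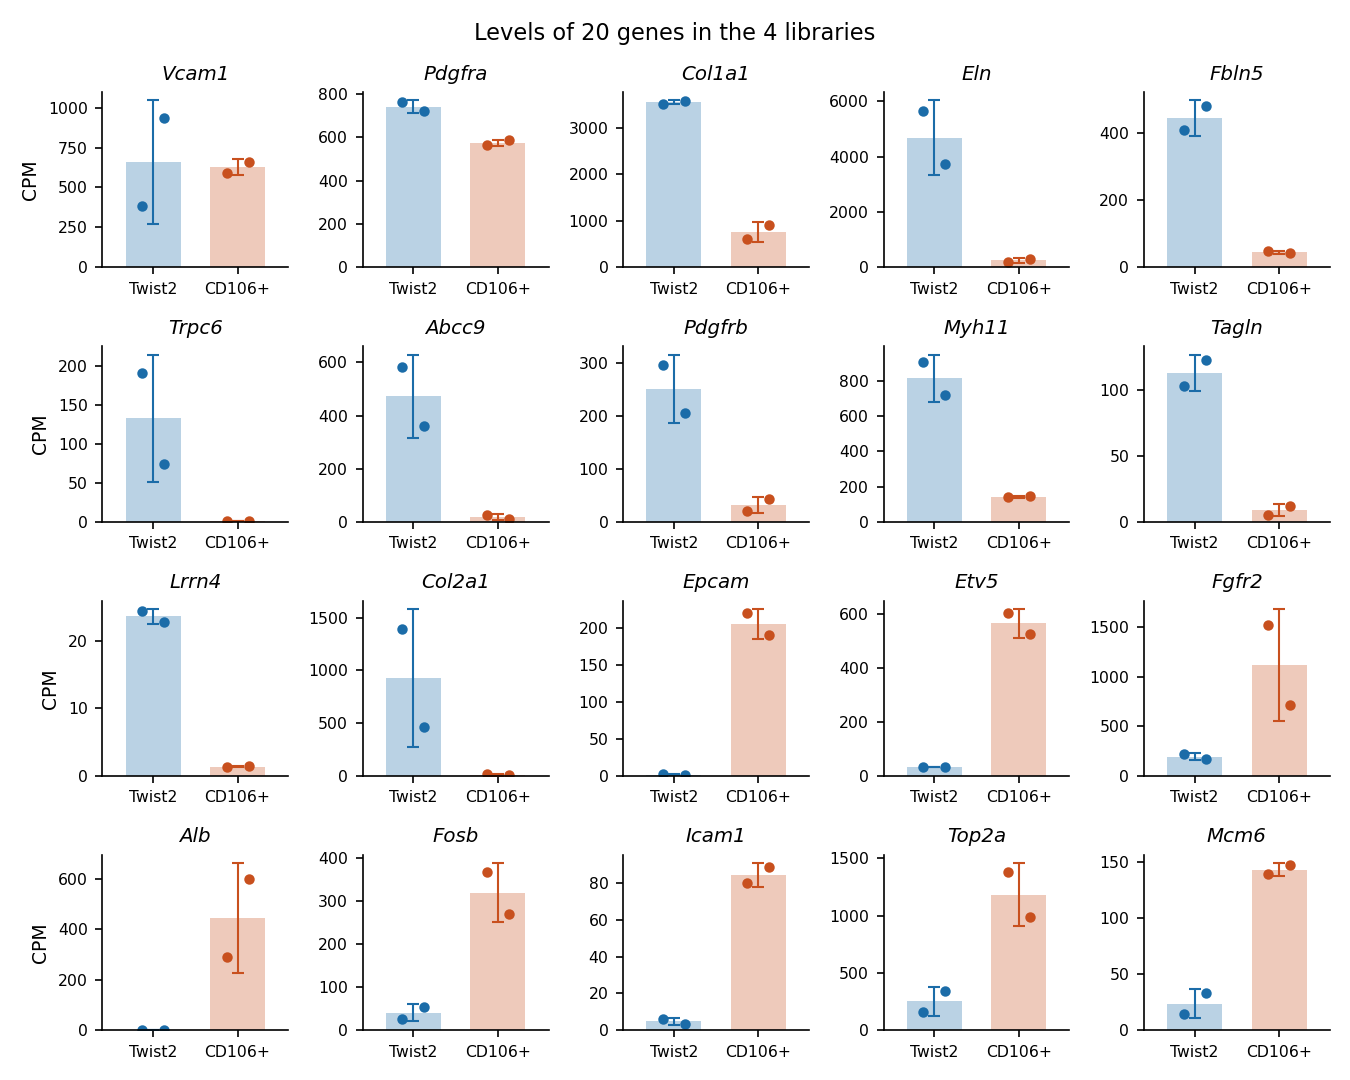
Level in CPM (y axis) of 20 genes in the 2 Twist2Cre saline pools and the 2 CD106+ libraries (x axis); points are libraries, bars the mean and whiskers the SD of 2 libraries. Vcam1 overlaps between the sets, matrix, mural, mesothelial and cartilage genes are higher in the pools, and Epcam, Etv5, Fgfr2, Alb, Fosb, Icam1, Top2a and Mcm6 are higher in CD106+.

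Cartilage and mesothelial genes were also on the Twist2Cre side. Chondrocyte markers were higher in 6 of 9 cases and lower in 1 (median 2.45), with sums of 2016 and 817 CPM in pools 1 and 2 against 168 and 142 CPM in CD106+. The 4 dexamethasone-treated Twist2Cre pools of the series gave sums between 29.8 and 542 CPM, so this list varied widely between pools. Col2a1, the cartilage collagen, stood at 1391 and 466 against 16.1 and 4.72 CPM, the link protein Hapln1 at 193 and 96.6 against 13.5 and 9.03 CPM, Col9a1 at 96.2 and 34.8 against 3.87 and 4.58 CPM and Col11a1 at 224 and 130.0 against 35.2 and 30.2 CPM. The member in the other direction was Sox9, a factor that distal lung epithelium also makes, at 20.6 and 12.4 against 69.2 and 61.8 CPM. In the covariate fit Hapln1 and Col9a1 no longer passed (edgeR adjusted p = 0.96 and 0.056). Mesothelial markers, of the sheet that covers the lung, were higher in 7 of 8 cases and in CD106+ in 0 (median 2.90), with sums of 319.6 and 221 CPM in the saline pools against 34.8 and 71.6 CPM for CD106+, with CD106- at 145 and 142 CPM. Lrrn4, a mesothelial membrane protein, stood at 24.4 and 22.9 against 1.29 and 1.48 CPM, Aldh1a2, which makes retinoic acid, at 55 and 39 against 6.45 and 6.2 CPM and Rspo1, a Wnt amplifier, at 77.1 and 57.1 against 5.8 and 13.2 CPM. Upk3b, a mesothelial plaque protein, stood at 13 and 32.4 against 2.15 and 3.64 CPM and lost its call without pool 2, CD106+ library 1 or CD106+ library 2 (edgeR adjusted p = 0.13, 0.14 and 0.082). Of the 7 mesothelial calls 3 held whichever library was left out.

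Transcripts of blood were uneven within the pools. Erythroid sums were 1672 and 288 CPM in pools 1 and 2 and 9.43 and 10.9 CPM in the CD106+ libraries, and 3 of 4 globin genes tested were higher in Twist2Cre. The beta globins Hbb-bt and Hbb-bs stood at 114 and 33.8 against 1.07 and 2.43 CPM and 133 and 29.5 against 0.86 and 1.75 CPM, and the alpha globin Hba-a2 at 721 and 122 against 2.36 and 1.89 CPM, a call lost without CD106+ library 1 or 2 (edgeR adjusted p = 0.33 and 0.27). In the covariate fit Hbb-bs no longer passed (edgeR adjusted p = 0.083). Globin genes have near-identical copies, and their single values are uncertain. Leukocyte sums were 176 and 41.9 CPM in pools 1 and 2 and 109 and 98.9 CPM in CD106+, with 2 of 5 markers higher in Twist2Cre, Lyz2 and Csf1r, neither of them whichever library was left out. The macrophage lysozyme gene Lyz2 stood at 80.2 and 10.9 against 4.08 and 8.9 CPM, and its call was lost without pool 1, CD106+ library 1 or CD106+ library 2 (edgeR adjusted p = 0.67, 0.25 and 0.11). Ptprc, which encodes CD45, had 11 and 0 reads in the pools and 0 and 2 in the CD106+ libraries. Endothelial markers passed in 0 of 11 cases by edgeR, DESeq2 and limma-voom, and 2 had an unadjusted edgeR p under 0.05, with Pecam1, which encodes CD31, at 20.6 and 3.33 against 23.6 and 15.9 CPM and Kdr, which encodes CD309, at 10.7 and 10.0 against 12.7 and 12.4 CPM. Their sums overlapped, at 208 and 109 against 157 and 132 CPM. Nerve and skeletal muscle lists had 1 gene tested each, and neither passed by edgeR, DESeq2 or limma-voom or had an unadjusted edgeR p under 0.05.

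On the CD106+ side, genes of epithelial cells stood out. Epithelial markers were higher in CD106+ in 10 of 18 cases and in Twist2Cre in 0 (median -3.65), with sums of 3513 and 4680.5 CPM in CD106+ against 408 and 60.2 CPM in pools 1 and 2. The CD106- libraries stood higher still, at 7680.2 and 7362 CPM. Epcam (chromosome 17, 87635979 to 87651127), an epithelial adhesion protein, stood at 219.7 and 191 CPM in the CD106+ libraries and 2.29 and 0.952 CPM in the pools (log2 difference -7.07, SE 0.56, edgeR adjusted p = 1.3e-08, and 0.054 in the covariate fit). Cdh1, E-cadherin, stood at 26 and 15.7 against 650.2 and 553 CPM, Cldn18, a lung claudin, at 26 and 4.76 against 539 and 437 CPM, and Abca3, which loads surfactant lipid into lamellar bodies, at 16 and 10.0 against 132 and 157 CPM. Cldn18 no longer passed with all bulk groups fitted together (edgeR adjusted p = 0.077). Nkx2-1, the factor that sets lung epithelial identity, stood at 16 and 1.43 CPM in the pools, below its 390.3 and 259 CPM in CD106+. Surfactant transcripts separated the 2 pools: Sftpc, of type 2 cells, stood at 90.9 and 10.5 CPM in pools 1 and 2 and 713 and 2365 CPM in CD106+ and did not pass (edgeR adjusted p = 0.2), and Lamp3, of lamellar bodies, stood at 76.4 and 0.952 against 323 and 203 CPM (edgeR adjusted p = 0.52). Of the 10 epithelial calls 7 held whichever library was left out. How much of any difference named on either side goes with these epithelial transcripts was not tested. Levels are shares of a library, so the limit holds for mesenchyme and matrix genes higher in Twist2Cre too.

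Plasma protein genes of liver were higher in CD106+ in 9 of 10 cases and in Twist2Cre in 0, with a median of -7.59 as fitted and -4.17 with the 6 members that had no read in the pools at their bounds. Their sums were 519 and 1112 CPM in CD106+ libraries 1 and 2, 46.6 and 8.47 CPM in the pools and 63.3 and 142 CPM in CD106-, so library 2 of CD106+ was the highest. Besides Alb and Afp, the fetal glycoprotein gene Ahsg stood at 9.24 and 28.6 CPM in CD106+ with no read in the pools, and the apolipoprotein gene Apoa1 at 10.3 and 30.2 CPM. Both lost their call without CD106+ library 2 (edgeR adjusted p = 0.13 and 0.19), where 2 of the 9 calls, Alb and Afp, were left. The member that did not pass was Trf, transferrin, at 48.9 and 7.62 against 77.6 and 173 CPM. Cardiac muscle genes passed in 0 of 9 cases by edgeR, 0 of them at an unadjusted p under 0.05, and in 1 case each by DESeq2 and limma-voom. Their sum was 4749.6 CPM in CD106+ library 1 and 139 CPM in library 2, with the pools between, at 614 and 910.4 CPM. Ttn, titin, ran from 43.7 CPM in CD106+ library 2 to 3416 CPM in library 1, where the pools gave 229 and 508 CPM. For this sum the spread within CD106+ was larger than any difference between the sets.

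Genes of dividing cells were higher in CD106+. Of 13 mitosis genes 10 were higher in CD106+ and 0 in Twist2Cre (median -2.08), and of 13 S phase genes 5 (Mcm6, Mcm7, Rrm2, Gins2 and Cdc45) and 0 (median -1.66). Top2a, the topoisomerase of dividing cells, stood at 159 and 342 against 1376 and 987 CPM (log2 difference -2.23, SE 0.39, edgeR adjusted p = 4.0e-04) and Bub1, a spindle checkpoint kinase, at 26.7 and 49 against 172 and 162 CPM. Mcm6, a subunit of the replicative helicase, stood at 14.5 and 32.8 against 139 and 148 CPM, and Rrm2, which makes deoxynucleotides, at 20.6 and 33.3 against 165 and 93.7 CPM. Pool 1 was the lowest library for each of the 4, and neither pool reached a CD106+ library. As they were chosen by smallest p, the separation of the sets was largely set by the choice. The mitotic kinases Aurka and Aurkb lost their call without CD106+ library 2 (edgeR adjusted p = 0.068 and 0.0502), Rrm2 without library 1 (0.069), and the replication gene Mcm7 without pool 1 or either CD106+ library (0.082, 0.12 and 0.21). The mitosis count was 5 without CD106+ library 1 and 4 without library 2, and 2 calls, Top2a and Bub1, held whichever library was left out. Cyclin gene Ccnb1 did not pass, at 9.16 and 57.1 against 108 and 97.6 CPM. The CD106- libraries, with sums of 6595 and 6144 CPM for mitosis genes, stood with CD106+, at 7404 and 4794 CPM, and above the pools, at 1306 and 2309 CPM.

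Immediate early genes are switched on within minutes by growth factors or stress, tissue digestion included. Of 24 tested 7 were higher in CD106+, 1 (Jund) in Twist2Cre and 16 did not pass (median -0.55). Fosb, an AP-1 subunit, stood at 26.7 and 54.7 against 369 and 271 CPM (log2 difference -2.95, SE 0.40, edgeR adjusted p = 2.0e-05), Atf3, a stress factor, at 5.35 and 3.81 against 87.5 and 60.1 CPM and Ier2 at 2.29 and 4.76 against 34.8 and 61.3 CPM. With all bulk groups fitted together Atf3 no longer passed (edgeR adjusted p = 0.08). Nr4a1, an orphan nuclear receptor, stood at 85.5 and 47.6 against 126 and 242 CPM, a call lost without pool 2 or CD106+ library 2 (edgeR adjusted p = 0.091 and 0.29). Zfp36, which destabilises cytokine messages, and Klf6 did not pass, at 460.4 and 541 against 629 and 651 CPM and 315 and 309 against 714 and 411 CPM. Sums of the list were 3066 and 3312 CPM in the saline pools against 6160.1 and 5769 CPM for CD106+, with CD106- at 8191 and 8377 CPM. Heat shock chaperones were higher in CD106+ in 4 of 13 cases and in Twist2Cre in 0 (median -0.77), Dnajb1 at 71.8 and 86.2 against 349 and 200.5 CPM, Hspa8 at 386 and 518 against 990.2 and 1171 CPM, Hsp90aa1 at 137 and 193 against 440.4 and 337 CPM and the mitochondrial chaperone Hspd1 at 119.9 and 83.8 against 294 and 188 CPM. None of these 4 calls held whichever library was left out. By edgeR adjusted p, Dnajb1 was lost without CD106+ library 1 (0.07), Hsp90aa1 without pool 1 or CD106+ library 1 (0.21 and 0.14) and Hspd1 without pool 2 or CD106+ library 1 (0.13 and 0.27). Hspa8 was lost without pool 1, pool 2 or CD106+ library 2 (edgeR adjusted p = 0.24, 0.055 and 0.059).

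Of 12 genes of the unfolded protein and amino acid responses 3 were higher in CD106+, Psat1, of serine synthesis, at 28.3 and 102 against 428 and 294 CPM, and the endoplasmic reticulum chaperones Hspa5 and Hsp90b1, at 239.8 and 539 against 973 and 1114 CPM and 1151 and 1553 against 3819.6 and 2780.4 CPM. The secretory factor Xbp1 was higher in Twist2Cre, at 208 and 252 against 85.3 and 116 CPM. Psat1 lost its call without CD106+ library 1 (edgeR adjusted p = 0.063) and Hspa5 without pool 1 or CD106+ library 2 (0.31 and 0.074). Hsp90b1 lost its call without pool 1, pool 2 or CD106+ library 1 (edgeR adjusted p = 0.29, 0.087 and 0.11) and Xbp1 without pool 2 or either CD106+ library (0.091, 0.19 and 0.062). Of 7 NF-kB and chemokine genes 2 passed, in opposite directions. Icam1, an adhesion partner of leukocytes like Vcam1, stood at 6.11 and 3.33 against 80.0 and 89 CPM (log2 difference -4.21, SE 0.55, edgeR adjusted p = 1.4e-05) and kept its call in every alternative fit run. On the scaling of all 11 bulk libraries, Icam1 stood at 167 and 179 CPM in CD106-, above 78.0 and 86.4 CPM in CD106+. Cxcl12, a chemokine of stromal cells, stood at 137 and 176 CPM in the pools against 53.3 and 64.2 CPM, a call lost without CD106+ library 1 or 2 (edgeR adjusted p = 0.11 and 0.061). Interferon genes were higher in Twist2Cre in 3 of 5 cases (Ifit3, Ifitm3 and Oasl2) and in CD106+ in 0. Ifitm3, a membrane restriction factor, stood at 248 and 190.0 against 21.7 and 62 CPM, a call lost in the covariate fit (edgeR adjusted p = 0.2). Oasl2 stood at 124 and 18.6 against 7.09 and 2.43 CPM, mostly in pool 1, a call lost without pool 1, CD106+ library 1 or CD106+ library 2 (edgeR adjusted p = 0.077, 0.058 and 0.14).

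Known glucocorticoid target genes were higher in Twist2Cre in 8 of 17 cases and in CD106+ in 0, with a median of 1.12, in sets whose labels carry no dexamethasone. Klf9, an early target and transcription factor, stood at 173 and 70.0 CPM in the pools and 18.3 and 16.7 CPM in CD106+ (log2 difference 2.79, SE 0.46, edgeR adjusted p = 2.2e-04), and Glul, glutamine synthetase, at 243 and 272 against 85.3 and 92.6 CPM. Zbtb16, a zinc finger target, stood at 97.7 and 142 against 28.2 and 46.5 CPM and Pdk4, which restrains pyruvate oxidation, at 58 and 33.8 against 14.4 and 4.58 CPM. Their calls were lost without CD106+ library 1 for Zbtb16 and without library 2 for Pdk4 (edgeR adjusted p = 0.12 and 0.21), and 2 of the 8 calls held whichever library was left out. The receptor gene Nr3c1 did not pass, at 438 and 438 against 341 and 296 CPM (log2 difference 0.46, 95% interval -0.21 to 1.13), nor did the EGF receptor inhibitor Errfi1, at 252 and 207 against 316 and 261 CPM. Sums of the list were 2608 and 2967 CPM in the saline pools against 1683 and 1546 CPM for CD106+, with CD106- at 1689.5 and 1780.2 CPM. They ran from 6180.1 CPM to 8150.3 CPM in the 4 dexamethasone Twist2Cre pools.

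**Figure D5:**
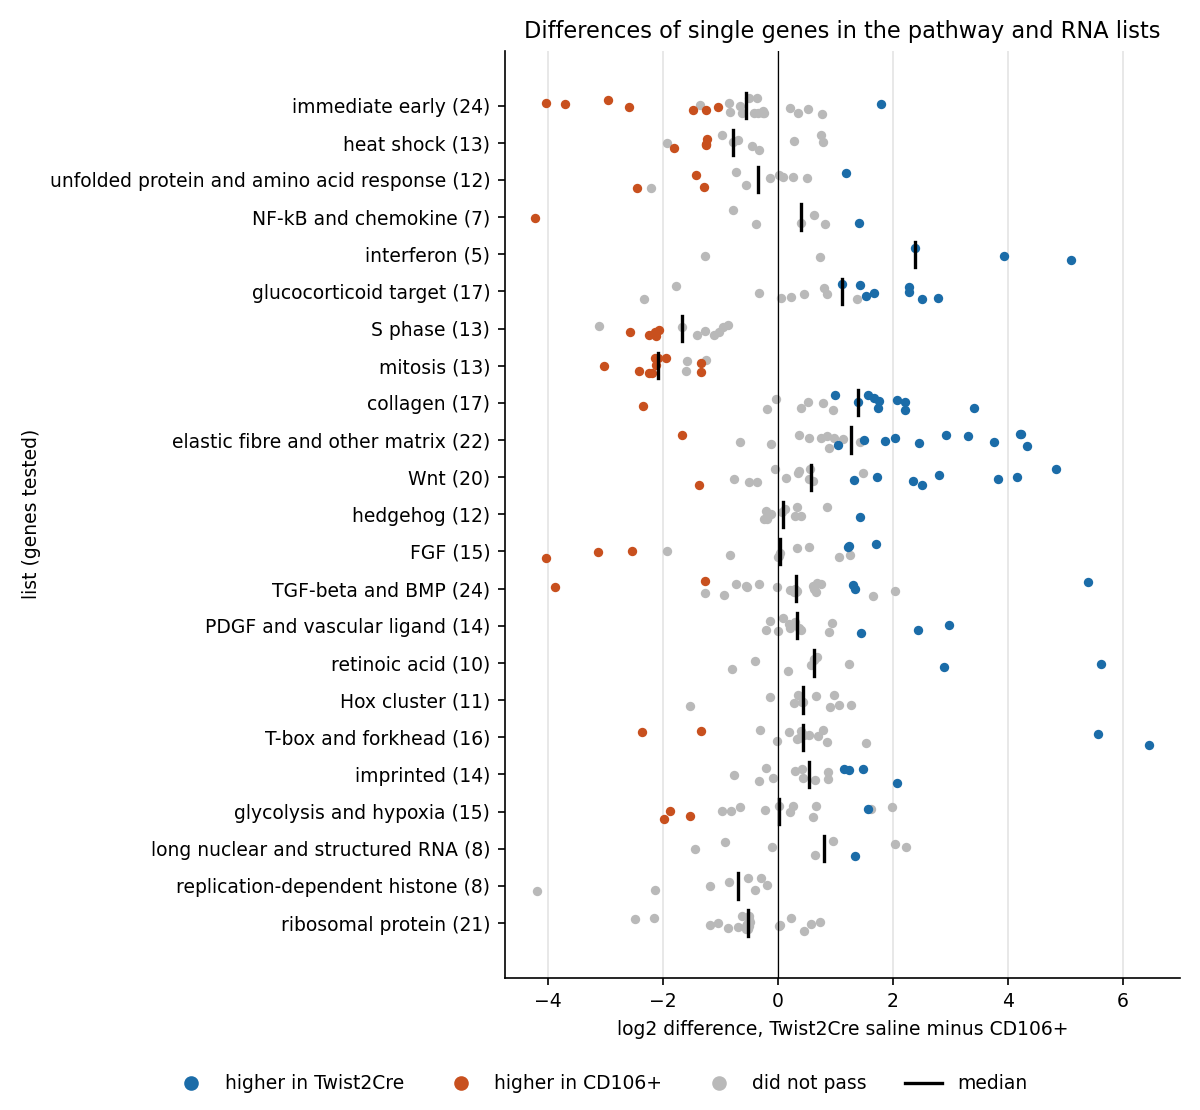
Log2 difference, Twist2Cre saline minus CD106+ (x axis), of each gene tested in the pathway and RNA lists (y axis, genes tested in brackets), coloured by call, with a bar at the list median. Mitosis genes lie to the left, with a median of -2.08, collagen genes mostly to the right, with a median of 1.40, and hedgehog genes around 0.10.

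Among signals exchanged between mesenchyme and epithelium, 9 of 15 FGF genes and 11 of 20 Wnt genes did not pass. Calls in these lists went both ways. Of 15 FGF pathway genes 3 were higher in CD106+ and 3 in Twist2Cre. The CD106+ genes were Fgfr2, whose epithelial form receives FGF10, at 217 and 169 against 1520.5 and 717 CPM, Etv5, a factor induced by FGF in distal epithelium (chromosome 16, 22381313 to 22439570), at 34.4 and 34.8 against 603 and 527 CPM, and the ligand Fgf1, at 10.7 and 23.3 against 177 and 127 CPM. For Etv5 the log2 difference was -4.03 (SE 0.38, edgeR adjusted p = 1.5e-07). On the scaling of all 11 bulk libraries, these 3 genes stood higher in both CD106- libraries than in both CD106+ libraries. In CD106-, Fgfr2 stood at 2492 and 2441 CPM, Etv5 at 1146 and 1128 CPM and Fgf1 at 344 and 414 CPM. The Twist2Cre genes included the receptor Fgfr4, at 134 and 112 against 30.7 and 44 CPM, a call lost without CD106+ library 1 (edgeR adjusted p = 0.081), with Fgfr1 and the feedback inhibitor Spry4. The mesenchymal ligand genes Fgf10 and Fgf7 did not pass, at 133 and 154 against 86.8 and 111 CPM and 139.7 and 194 against 52 and 107 CPM. Of 20 Wnt genes 8 were higher in Twist2Cre and 1, the receptor Fzd7, in CD106+ (median 0.58). They were led by secreted modulators: Dkk3 at 614 and 667 against 109.8 and 142 CPM, Sfrp2 at 119 and 206 against 25.8 and 31.1 CPM and Sfrp1 at 426 and 358 against 147 and 90.6 CPM. The receptor Fzd1 and the ligand Wnt5a did not pass, at 421 and 419 against 372 and 386 CPM and 97.7 and 189 against 125 and 99.2 CPM.

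Of 12 hedgehog genes 1 was higher in Twist2Cre, the coreceptor Gas1 at 66.4 and 57.6 against 20.0 and 25.6 CPM, a call lost without pool 1, CD106+ library 1 or CD106+ library 2 (edgeR adjusted p = 0.072, 0.26 and 0.16). The list median was 0.10, and -0.09 with total counts as the scale. Ptch1, both receptor and target of hedgehog, had levels of 369 and 548 against 434 and 611 CPM (log2 difference -0.19, 95% interval -0.90 to 0.52). Of 24 TGF-beta and BMP genes 3 were higher in Twist2Cre (Tgfbr3, Ctgf and the BMP antagonist Grem1) and 2 in CD106+. The coreceptor Tgfbr3 stood at 551 and 495 against 218 and 206 CPM and the matricellular gene Ctgf at 97.7 and 89 against 32.2 and 41.4 CPM, while the BMP targets Id1 and Id2 were higher in CD106+, at 0 and 1.43 against 10.1 and 15.2 CPM and 34.4 and 31.4 against 75.9 and 81.7 CPM. None of the 5 calls held whichever library was left out. Id2 lost its call without any 1 of the 4 libraries, Ctgf without any but pool 2, Tgfbr3 without pool 1 or CD106+ library 2 and Id1 without CD106+ library 1 or 2. Without CD106+ library 2 the edgeR adjusted p was 0.067 for Tgfbr3, 0.11 for Ctgf, 0.3 for Id1 and 0.23 for Id2. Bmpr2 and Bmpr1a, BMP receptors, did not pass, at 1708 and 1652 against 1236 and 879 CPM and 467 and 448 against 429.7 and 324 CPM. Of 14 PDGF and vascular ligand genes 3 were higher in Twist2Cre, among them Pdgfrb, Angptl2, an angiopoietin relative, at 155 and 180.4 against 32.5 and 29.7 CPM, and Angpt2, at 76.4 and 45.7 against 30.1 and 14.8 CPM, a call lost without pool 1 or either CD106+ library (edgeR adjusted p = 0.24, 0.078 and 0.44). Of 10 retinoic acid genes 2 were higher in Twist2Cre, the synthetic enzymes Aldh1a2 and Aldh1a3. The Aldh1a3 call did not hold whichever library was left out. Aldh1a2 is also counted in the mesothelial list and Pdgfrb in the pericyte list. Shares called were 8.3% for hedgehog, 20.8% for TGF-beta and BMP, 21.4% for PDGF and 20% for retinoic acid genes, beside 15.2% of all genes.

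Hox genes, which mark position along the body, passed in 0 of 11 cases by edgeR, DESeq2 and limma-voom, 1 of them at an unadjusted edgeR p under 0.05 (median 0.44), with Hoxa5 at 77.9 and 102 against 76.9 and 64.3 CPM and Hoxb3 at 83.2 and 64.3 against 60.4 and 48.9 CPM, while their sums were 23.8 and 39 CPM in CD106-, against 254 and 274 CPM in CD106+. Of 16 T-box and forkhead genes 2 were higher in Twist2Cre and 2 in CD106+. The lung mesenchyme factors Tbx4 and Tbx5 did not pass, at 276 and 327 against 169.6 and 354 CPM and 819 and 798 against 463 and 469.9 CPM. Foxc1, a factor of vascular and skeletal mesenchyme (chromosome 13, 31806646 to 31810635), stood at 50.4 and 32.4 CPM in the pools and 0.86 and 0.135 CPM in CD106+ (log2 difference 6.45, SE 0.84, edgeR adjusted p = 1.3e-05), and its relative Foxc2 was also higher in Twist2Cre. Foxp2, a factor of lung epithelium, stood at 105 and 62.8 against 583 and 276 CPM, a call lost in the covariate fit (edgeR adjusted p = 0.065). Foxm1, of dividing cells, stood at 45.1 and 79.5 against 141 and 176 CPM, a call lost without pool 1 or either CD106+ library (edgeR adjusted p = 0.18, 0.063 and 0.16).

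Imprinted growth genes of fetal tissue were higher in Twist2Cre in 4 of 14 cases and in CD106+ in 0 (median 0.54). Plagl1, a zinc finger regulator of this network, stood at 7769 and 3588 against 1891 and 824 CPM, Mest at 1642 and 1876 against 673 and 581 CPM, the growth factor Igf2 at 4867 and 3185 against 2185 and 1236 CPM and Peg3 at 3243 and 2473 against 1509 and 1077 CPM. None of the 4 held whichever library was left out. By edgeR adjusted p, Plagl1, Igf2 and Peg3 were lost without pool 1 (0.085, 0.36 and 0.31) and without CD106+ library 2 (0.052, 0.25 and 0.2), and Igf2, Peg3 and Mest without pool 2 (0.062, 0.098 and 0.055). Of 15 glycolysis and hypoxia genes 3 were higher in CD106+ (Pkm, Pgam1 and Pfkl) and 1 in Twist2Cre, with the glycolytic enzymes Pkm and Pgam1 at 25.2 and 30.0 against 85.3 and 117 CPM and 119.9 and 180.4 against 457 and 409 CPM and the oxygen sensor Egln3 at 142 and 114 CPM in the pools against 41.1 and 45.3 CPM. By edgeR adjusted p, Pkm lost its call without CD106+ library 2 (0.09), Pgam1 without pool 1 (0.096) and Egln3 without CD106+ library 1 or 2 (0.076 and 0.062). Gapdh overlapped, at 128 and 134 against 122 and 183 CPM. Among RNA classes, ribosomal protein genes passed in 0 of 21 cases by edgeR, DESeq2 and limma-voom, with 3 at an unadjusted edgeR p under 0.05. Replication-dependent histone genes passed in 0 of 8 cases by edgeR and DESeq2 and in 1 by limma-voom, with 1 at an unadjusted edgeR p under 0.05. The nuclear RNA Malat1 stood at 104909 and 58186 against 57885 and 25908 CPM and did not pass, and the imprinted antisense RNA Kcnq1ot1 stood at 3850.0 and 2339 against 1749.6 and 699 CPM, a call lost without pool 1 or CD106+ library 2 (edgeR adjusted p = 0.31 and 0.3).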

How the data were processed

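RNA was measured by bulk sequencing, and the authors deposited expected counts per gene, estimated and not always whole. The 4 libraries compared came from 2 tables of the same 24371 genes. The CD106+ dexamethasone library, used in the scaling of list sums and in the covariate fit, came from another table. Per the submitters' processing notes the build was mm10 and the tools include Trim Galore, TopHat2 and Partek, with roles and versions not given in the sources used here. Counts were rounded. Positions came from the RefSeq GRCm38.p6 gene table, matched by symbol for 24248 genes (1183 through an older symbol); 1112 genes on X or Y and 123 without a position were left out, which left 23136.

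Genes passing edgeR's filterByExpr were fitted in edgeR 4.0.16 (R 4.3.3; trimmed mean of M values scaling, robust quasi-likelihood test, Benjamini-Hochberg adjusted p under 0.05) on the 2 saline Twist2Cre pools and the 2 CD106+ libraries. Single-gene CPM use the scaling of these 4 libraries, and list sums that of all 11 bulk libraries. Genes with no read in a set were set against a floor of 3 counts over that set, which covers counting error only. Alternatives used other scalings and filters, DESeq2 1.42.0, limma-voom 3.58.1, wider fits and each library left out. On simulated counts for 11173 genes with 196 changed, the fit recovered 3.1%, 55.4% and 88.1% of changes of 1, 2 and 3 on the log2 scale, and 10 of its 107 calls were false. Promoters came from the RefSeq table.

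The samples and gene lists were chosen with earlier results of these data known. Genes named are the 12 largest fitted differences each way (mean log2 CPM of 3 or more, groups apart), up to 4 members per list by smallest p among those past the threshold, up to 2 abundant members that did not pass, and fixed checks. Myl9, Egr2, Synpo2, Zfp36, Col2a1, Col18a1, Fbn2, Sox9, Nkx2-1, Fzd7, Jund, Fgfr1, Spry4, Foxc2, Aldh1a3, Csf1r, Ifit3, Grem1, Pfkl, Gins2, Cdc45, Bag3, Hspe1 and the other genes named for a motif were chosen after their values were seen.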

Additional observations from a re-analysis of the deposited data

How the results depend on the processing

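Against 1763 genes that differed, the alternatives gave 1763 (relative log expression), 1727 (upper quartile), 1739 (total counts), 2068 (no low count filter), 1646 (DESeq2), 1739 (limma-voom), 2029 (all bulk groups fitted together), 2151 (dexamethasone as a covariate) and 1842 (X, Y and unplaced genes kept). The gene Rn45s has no position and was already left out, so the fit planned without it was the same fit. Leaving out 1 library gave 675 to 2265 genes: 675 without CD106+ library 1, 819 without CD106+ library 2, 1456 without pool 1 and 2265 without pool 2. The share of calls higher in Twist2Cre was 52.0% as reported, 41.9% with total counts, and without CD106+ library 1 the split was 428 to 247. The same leave-one-out fits gave 2 to 9 liver plasma protein genes and 4 to 10 mitosis genes higher in CD106+. The covariate fit called 5 liver plasma protein genes, and turned Lyz2 to -0.37 (edgeR adjusted p = 0.88) and Oasl2 to -0.014 (edgeR adjusted p = 1.0). Causes were not tested. Both sets carry replicate numbers 1 and 2, which nothing in the labels ties together, and their deviations correlated at r = 0.108 over 11614 genes. With the replicate block 2333 genes differed, 17 of them elastic fibre and other matrix genes higher in Twist2Cre. The median differences of the FGF, glycolysis and hedgehog lists turned to -0.12, -0.12 and -0.09 with total counts. Of 125 named genes that differed, 65 kept their call in all 14 alternatives. Pool 1 is the shallowest library. In simulated counts of this design, with 196 of 11173 genes changed, most differences of 1 on the log2 scale were not recovered. The part of depth in that was not tested. The simulation changed a smaller share of genes than the 15.2% called in the data. The Benjamini-Hochberg cutoff depends on that share, so recovery in the data may differ.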

Other observations

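Noncoding genes were split unevenly between the sets. Of 306 long noncoding RNA genes tested, 64 (20.9%) were higher in the Twist2Cre pools and 10 (3.27%) in the CD106+ libraries, with a median difference of 0.96 on the log2 scale. The 11217 protein-coding genes split 7.51% to 7.44%, with a median of -0.06. Peg3os and E130008D07Rik, with no read in either CD106+ library, were among the largest fitted of these differences. The counts are not stated to use strand, so reads of a noncoding gene and of a gene that overlaps it cannot be told apart. The sets also come from separate count tables, and the part of that in this split was not tested.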
